A study of Mus musculus with 64 samples.

Results

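Kcnh6, Acbd4, C130046K22Rik and Cd300ld are 4 genes of mouse chromosome 11, out of 36332 genes in the deposited expression table. They were chosen by gene identifier because each had differed between Myc-knockout (KO) and wild-type (WT) mice in these same data. Their KO against WT values are therefore given as a description, with no test. In RefSeq's annotation of GRCm38.p6, Acbd4 lies at chr11:103101688-103112199 and C130046K22Rik at chr11:103697724-103725573. Kcnh6 lies at chr11:106008044-106035595 and Cd300ld at chr11:114982443-114989886. Kcnh6, Acbd4 and Cd300ld are protein-coding genes and C130046K22Rik is a long noncoding RNA (lncRNA) gene. Their starts span 11.9 Mb in all, with 0.596 Mb between Acbd4 and C130046K22Rik and 2.31 Mb between C130046K22Rik and Kcnh6. Cd300ld lies 8.97 Mb beyond Kcnh6. All 4 genes passed the filter on low values in each tissue. Cd300ld in muscle and Kcnh6 in liver passed it through their KO libraries, as too few WT libraries alone exceeded the limit.

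The study sequenced poly-A RNA in 64 libraries of 12 groups, covering KO and WT mice at 5 and 20 months and 3 tissues: omental fat (adipose tissue below), liver and skeletal muscle. Adipose tissue and liver had 6 libraries per genotype at 5 months and 5 at 20 months. For muscle the younger groups held 4 (KO) and 6 (WT) libraries and the older groups 5 each. KO mice came from a cross of 2 lines on a B6.129 background. The first line carries a tamoxifen-activated Cre recombinase at the widely active Rosa26 locus (Gt(ROSA)26Sortm1(cre/ERT2)Tyj), and the second a Myc allele (Myctm2Fwa) that Cre can excise. WT mice are labelled C57/B6. Both genotypes received 5 daily tamoxifen injections (75 mg per kg, in corn oil) around weaning, so the controls carry the drug too but are not labelled as carrying Cre or the Myc allele. The strain label and the Myc genotype differ between the same groups, so the 2 cannot be told apart in any KO against WT value here. The labels do not say whether libraries of 1 group came from separate animals, and p-values measure the spread between these libraries only.

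Kcnh6 encodes a voltage-gated potassium channel of the ether-à-go-go-related (ERG) type. Channels of this type set the membrane potential of excitable cells and are known mainly from the nervous system and heart. Acbd4 encodes a protein with an acyl-CoA binding domain. Relatives of it carry activated fatty acids and tether peroxisomes to the endoplasmic reticulum through VAP proteins. Cd300ld encodes a receptor of the CD300 family, which is expressed on myeloid cells such as macrophages and neutrophils and signals through adaptors with activating motifs. CD300 genes lie together in a cluster on chromosome 11.

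Kcnh6 and Cd300ld were low in WT libraries that lacked C130046K22Rik, so the windows around the start sites of these 3 genes are shown. RefSeq's promoter table for GRCm38.p6 held a window of 300 bases for C130046K22Rik, Kcnh6 and Cd300ld. Each window runs 5′ to 3′ on the gene's strand, and capitals mark every match, on either strand, to GGGCGG or CCGGAA. The Kcnh6 window is set on a start 104 bases inside the annotated gene.
C130046K22Rik, chr11:103697474-103697773, plus strand: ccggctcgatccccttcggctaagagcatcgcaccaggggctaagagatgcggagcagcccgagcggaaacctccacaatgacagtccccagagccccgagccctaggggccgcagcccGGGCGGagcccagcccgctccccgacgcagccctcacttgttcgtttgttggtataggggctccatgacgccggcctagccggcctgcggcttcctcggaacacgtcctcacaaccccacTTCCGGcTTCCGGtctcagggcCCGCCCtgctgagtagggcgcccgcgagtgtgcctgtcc
Kcnh6, chr11:106007898-106008197, plus strand: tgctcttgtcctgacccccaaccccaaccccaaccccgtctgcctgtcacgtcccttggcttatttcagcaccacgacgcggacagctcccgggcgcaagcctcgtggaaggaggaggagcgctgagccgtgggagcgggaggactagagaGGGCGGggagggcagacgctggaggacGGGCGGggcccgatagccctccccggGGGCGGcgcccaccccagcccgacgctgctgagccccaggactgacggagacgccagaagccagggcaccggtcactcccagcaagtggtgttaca
Cd300ld, chr11:114989837-114990136, minus strand: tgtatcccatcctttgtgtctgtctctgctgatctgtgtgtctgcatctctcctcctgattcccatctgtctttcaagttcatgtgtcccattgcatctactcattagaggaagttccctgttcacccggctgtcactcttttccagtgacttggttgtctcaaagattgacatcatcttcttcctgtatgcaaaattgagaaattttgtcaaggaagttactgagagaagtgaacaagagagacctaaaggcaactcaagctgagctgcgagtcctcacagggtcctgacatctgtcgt
The G+C share was 68.3% in the C130046K22Rik window, 69.3% in the Kcnh6 window and 45.3% in the Cd300ld window. GGGCGG matched 2 times in C130046K22Rik and 3 times in Kcnh6, against 35.7% of 32851 promoter windows with at least 1 match. CCGGAA matched 2 times in C130046K22Rik and in neither of the other 2 windows, against 14.9% of all windows. Neither CACGTG, the E-box that Myc and Max bind, nor TATAAA matched in any of the 3 windows. These letters occurred in 7.15% and 13.6% of all windows. None of these motifs was shared by all 3 windows.

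Libraries held 15449409 to 28500633 reads on genes. Markers of each tissue, 8 genes a list, were highest in the labelled tissue. Adipocyte genes summed to 10270 to 37726 CPM (the authors' normalized read signal) in adipose libraries and to at most 971 CPM elsewhere. Hepatocyte genes summed to at least 107984 CPM in liver, and skeletal muscle genes to at least 143109 CPM in muscle. Hepatocyte genes reached 2800 CPM in the WT muscle library W18S42 at 20 months, where the group's median was 0.0580 CPM, and 726 CPM in the KO adipose library K18F27. Skeletal muscle genes reached 945 CPM in the WT adipose library W5F5277. Myc had a lower median in KO than in WT in 6 of 6 tissue and age comparisons, and its groups did not overlap in liver at either age or in adipose tissue at 5 months. In muscle they overlapped at both ages. Xist, which marks females, was present in 12 libraries, all at 5 months, with 2 such libraries in each of the 6 groups of that age. Transcripts of the epididymis exceeded 100 CPM in 5 libraries at 5 months: 3 KO adipose libraries (K5F4284, K5F5218 and K5F5248), the WT adipose library W5F5299 and the WT muscle library W5S5299. In these bulk samples fewer cells of a type and less RNA per cell cannot be told apart. All values below are in the CPM units that the authors deposited.

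C130046K22Rik was either present or absent. It had at least 10 reads in 31 of 31 KO libraries, at 0.74 to 4.59 CPM. WT libraries fell into 2 separate ranges. In 14 of the 33 it stood at 1.44 to 4.04 CPM, and in the other 19 it had at most 1 read, with 18 of those at 0 reads.

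At 20 months the WT muscle libraries held 0 CPM in 5 of 5, and the KO muscle libraries held 2.03, 2.11, 2.47, 2.57 and 2.67 CPM. A count of 0 allows 3 reads over the 5 WT libraries, which puts the KO mean at least 68.8-fold higher, counting error only. In adipose tissue at 20 months the WT libraries held 0, 0, 0, 0 and 2.59 CPM, and the KO libraries 2.0, 2.02, 2.12, 2.57 and 4.18 CPM. A single WT library, W18F23, thus reached the KO range while the other 4 had no read.

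Liver at 20 months showed the same form, with 0, 0, 0, 0 and 2.07 CPM in WT and 1.64, 1.74, 2.15, 2.66 and 3.5 CPM in KO. The WT liver library with reads was W18L03. At 5 months 2 of 6 WT libraries had at most 1 read in each tissue, and the other 4 stood at 2.28 to 4.04 CPM in adipose tissue, 1.44 to 2.66 CPM in liver and 1.45 to 2.04 CPM in muscle. KO libraries at 5 months held 1.98 to 4.59 CPM in adipose tissue, 0.74 to 2.95 CPM in liver and 1.68 to 2.86 CPM in muscle. Those ranges overlapped the 4 WT libraries with reads in each tissue.

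In GENCODE's transcripts C130046K22Rik shared 13.7% of its 50-base stretches with Gosr2, a gene that begins beside it. Gosr2 stood at 42.2 to 125 CPM in all 64 libraries, including those in which C130046K22Rik had no read. Acbd4 and Kcnh6 shared none of their 50-base stretches with another gene. Kcnh6 overlaps the lncRNA gene Gm35971 over 12697 bases, and Gm35971 was listed at 0 in 64 of 64 libraries. Cd300ld shared 3.89% of its stretches with other CD300 genes, so a small part of its reads may be uncertain.

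**Figure D1:**
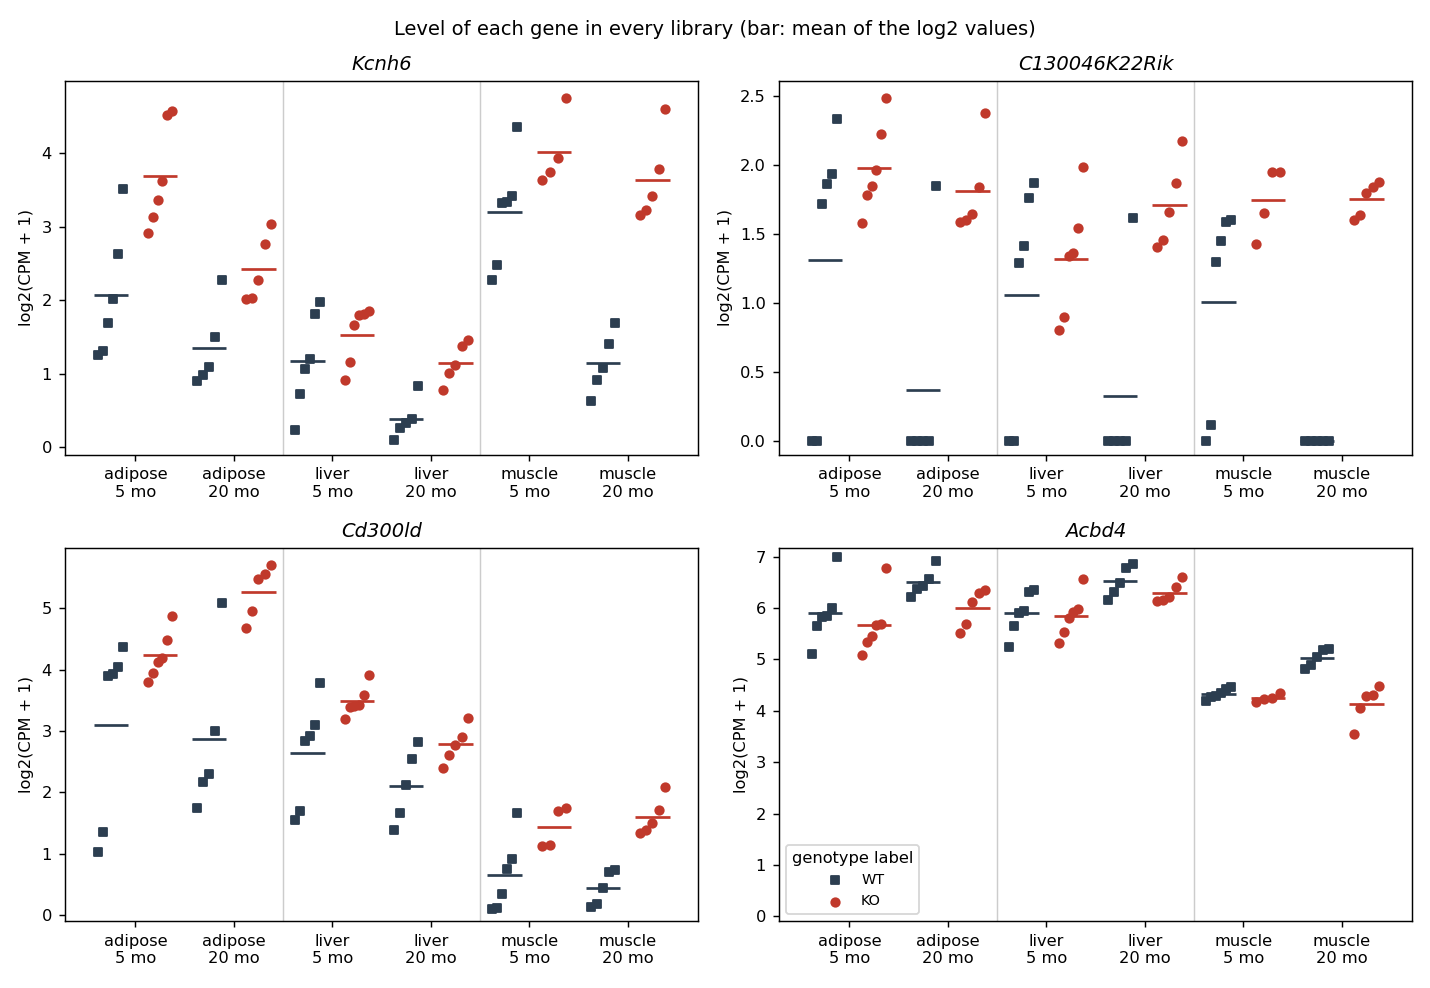
Level of the 4 genes as log2(CPM + 1) in each of the 64 libraries, by tissue and age in months, with WT as squares and KO as circles and a bar at the mean of each group's log2 values. C130046K22Rik is at or near 0 in 19 WT libraries and in no KO library, and in muscle at 20 months the KO and WT libraries of all 4 genes are apart.

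Kcnh6, the potassium channel gene, was lowest in liver, and its KO and WT libraries were farthest apart in muscle at 20 months. WT muscle then held 0.55, 0.88, 1.10, 1.64 and 2.23 CPM, and KO muscle 7.91, 8.37, 9.66, 12.8 and 23.2 CPM. The lowest KO library exceeded the highest WT library, and the KO mean was 9.67 times the WT mean. On the log2(CPM + 1) scale, which understates changes of low genes, the difference was 2.49 ± 0.345 (SE).

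In muscle at 5 months Kcnh6 had a lowest, median and highest value of 3.84, 9.03 and 19.4 CPM over 6 WT libraries, and the 4 KO libraries held 11.5, 12.4, 14.3 and 25.8 CPM. Those groups overlapped through 1 WT library, W5S5007. Adipose tissue at 5 months had 1.39, 2.62 and 10.3 CPM as its lowest, median and highest WT values and 6.56, 10.2 and 22.8 CPM as its KO values. The WT library W5F5299 at 10.3 CPM was the only one inside the KO range. It is among the 4 adipose libraries with epididymis transcripts, as are the highest KO library (K5F4284) and the lowest (K5F5218). Without those 4 libraries the KO and WT groups did not overlap.

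In adipose tissue at 20 months WT held 0.86, 0.98, 1.14, 1.83 and 3.84 CPM and KO held 3.03, 3.08, 3.82, 5.76 and 7.21 CPM. The WT value of 3.84 CPM belonged to W18F23, the library with C130046K22Rik reads, and the other 4 WT libraries lay under every KO library. Liver was lowest. At 20 months its WT libraries held 0.07, 0.20, 0.26, 0.31 and 0.78 CPM, the highest being W18L03, and its KO libraries 0.72, 1.02, 1.18, 1.59 and 1.75 CPM. At 5 months liver had 0.18, 1.19 and 2.94 CPM in WT and 0.89, 2.33 and 2.60 CPM in KO as lowest, median and highest values, and the groups overlapped widely. In 2 WT liver libraries at 20 months there were at most 3 Kcnh6 reads.

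Markers of nerve and Schwann cells were read beside Kcnh6. Their 8 genes summed to 58.7 to 68.6 CPM in KO muscle and 27 to 58.2 CPM in WT muscle at 20 months, with Nefl at 0 in both groups. At 5 months the sums were 101.5 to 177 CPM in KO muscle and 47.5 to 158 CPM in WT muscle. The KO and WT sums thus did not overlap in muscle at 20 months and did at 5 months. The median log2 difference of the 5 markers tested in muscle was 0.47 at 20 months and 0.65 at 5 months, and no single one had separate groups at either age. The part of these cells in the Kcnh6 values was not tested.

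Cd300ld, the myeloid receptor gene, had its highest medians in adipose tissue. At 20 months WT adipose tissue held 2.35, 3.5, 3.94, 7.02 and 33.0 CPM and KO held 24.4, 29.99, 43.5, 45.9 and 51.1 CPM. The value of 33.0 CPM was again W18F23, and the other 4 WT libraries lay below every KO library. The difference was 2.41 ± 0.610 (SE) on the log2 scale, and the KO mean was 3.91 times the WT mean with all 5 WT libraries and 9.28 times without W18F23.

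At 5 months Cd300ld in adipose tissue had 1.03, 14.0 and 19.6 CPM as lowest, median and highest WT values and 12.8, 16.9 and 28.2 CPM as KO values. Both WT libraries far below the rest, at 1.03 and 1.57 CPM, were those with no C130046K22Rik read. In liver at 20 months WT held 1.63, 2.16, 3.33, 4.80 and 6.08 CPM and KO held 4.29, 5.12, 5.83, 6.48 and 8.27 CPM. The groups overlapped, with W18L03 the highest WT library. At 5 months liver had 1.94, 6.35 and 12.7 CPM in WT and 8.21, 9.70 and 14.1 CPM in KO.

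Muscle had the lowest Cd300ld level, with 0.10, 0.14, 0.36, 0.64 and 0.67 CPM in WT and 1.52, 1.61, 1.83, 2.30 and 3.27 CPM in KO at 20 months. The KO and WT libraries did not overlap, the KO mean was 5.56 times the WT mean, and the log2 difference was 1.17 ± 0.257 (SE). WT values rest on 2 to 11 reads per library. At 5 months WT muscle had 0.07, 0.48 and 2.18 CPM as lowest, median and highest values, and the KO libraries held 1.20, 1.20, 2.25 and 2.35 CPM.

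Markers of myeloid cells were read beside Cd300ld. The 10 macrophage markers summed to 1058 to 1837 CPM in KO and 715.5 to 1444 CPM in WT adipose tissue at 20 months, and to 540.5 to 2448 CPM and 676 to 1142 CPM at 5 months. In liver the sums were 280 to 391 CPM in KO and 218 to 325 CPM in WT at 20 months, and 435 to 906 CPM and 283 to 686 CPM at 5 months. Muscle had 60.4 to 126 CPM in KO and 30.5 to 109 CPM in WT at 20 months, and 112 to 207 CPM and 65.4 to 252 CPM at 5 months. KO and WT overlapped in every one of these 6 comparisons. The median log2 difference of the tested macrophage markers was above 0 in 6 of 6, from 0.26 in adipose tissue at 5 months to 0.57 in muscle at 20 months. Over all genes tested the medians lay between -0.04 and 0.01. Of these markers 1 of 9 had separate groups in adipose tissue at 20 months, against 1.29% of all genes tested, and none in the other 5 comparisons.

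Neutrophil markers had medians of 0.48 to 1.04 in the 6 comparisons. Of the 5 tested in adipose tissue and liver, 1 had KO above every WT library at 20 months in each, S100a9, at 1.12 to 2.28 CPM in KO and 0.340 to 0.908 CPM in WT adipose tissue. In liver it held 2.81 to 6.92 CPM in KO and 1.42 to 2.60 CPM in WT. Over all genes tested at 20 months, 1.29% in adipose tissue and 2.46% in liver had separate groups in either direction. Nothing is read from this 1 marker. The 8 neutrophil markers summed to 6.87 to 703 CPM in KO and 2.91 to 123 CPM in WT muscle at 20 months. The macrophage marker Clec4f was at 0 in WT muscle at 5 months, and Ly6g, of neutrophils, was at 0 in adipose tissue at 20 months in both genotypes. The part of myeloid cell number in the Cd300ld values was not tested.

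Acbd4, the acyl-CoA binding gene, was the member that was lower in KO. WT muscle at 20 months held 27.1, 28.5, 32.1, 35.1 and 35.9 CPM, and KO muscle 10.7, 15.6, 18.6, 18.7 and 21.2 CPM. Every KO library lay below every WT library, the KO mean was 0.533 of the WT mean, and the log2 difference was -0.89 ± 0.135 (SE). At 5 months the WT muscle libraries had 17.3, 18.9 and 21.1 CPM as lowest, median and highest values, and the KO libraries held 17.1, 17.7, 18.1 and 19.3 CPM. The range of the KO libraries at 20 months contained every muscle library at 5 months.

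In adipose tissue at 20 months WT held 72.9, 81.6, 85.2, 94.2 and 119 CPM and KO held 44.9, 50.7, 68.4, 77.6 and 80.7 CPM. The lowest WT library was W18F23, and it was the only WT library inside the KO range. Liver at 20 months had 70.3, 78.5, 89.1, 109 and 115 CPM in WT and 68.9, 69.9, 72.9, 84.1 and 96.6 CPM in KO. The lowest WT library there was W18L03. At 5 months both genotypes overlapped widely, with 33.5, 55.8 and 127 CPM in WT adipose tissue and 33.1, 46.5 and 109 CPM in KO. Liver at 5 months had 36.7, 59.4 and 80.6 CPM in WT and 39.0, 57.1 and 93.7 CPM in KO.

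Set side by side, the KO minus WT differences of C130046K22Rik, Kcnh6 and Cd300ld were above 0 in 6 of 6 comparisons each and those of Acbd4 below 0 in 6 of 6. The 6 comparisons are not independent of the choice of these genes. In muscle at 20 months 4 of 4 genes had KO and WT groups that did not overlap, 3 with KO above and 1 with KO below. Without W18S42, the library with hepatocyte transcripts, this was again 4 of 4, and the ratio of KO to WT means was 10.4 for Kcnh6, 6.86 for Cd300ld and 0.552 for Acbd4. Over all 13237 genes tested in that comparison 3.0% had such groups, 1.28% with KO above and 1.71% with KO below. Since the genes were chosen on this contrast, nothing is read from the excess.

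In the other 5 comparisons 0 of 4 genes had separate groups. The shares over all genes tested were 0.301% and 1.29% in adipose tissue at 5 and 20 months, 0.201% and 2.46% in liver, and 0.718% in muscle at 5 months. In adipose tissue at 20 months the count became 4 of 4 without W18F23. In liver at 20 months it became 2 of 4 without W18L03 and 1 of 4 without the KO library K18L09. At 5 months it became 1 of 4 without W5F5299 in adipose tissue, without W5L5277 in liver, and without any 1 of K5S4285, W5S5007 or W5S5299 in muscle. No member had separate groups in more than 1 comparison. Pvt1 and Gt(ROSA)26Sor, at or beside the engineered loci, had them in 4 of 6.

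**Figure D2:**
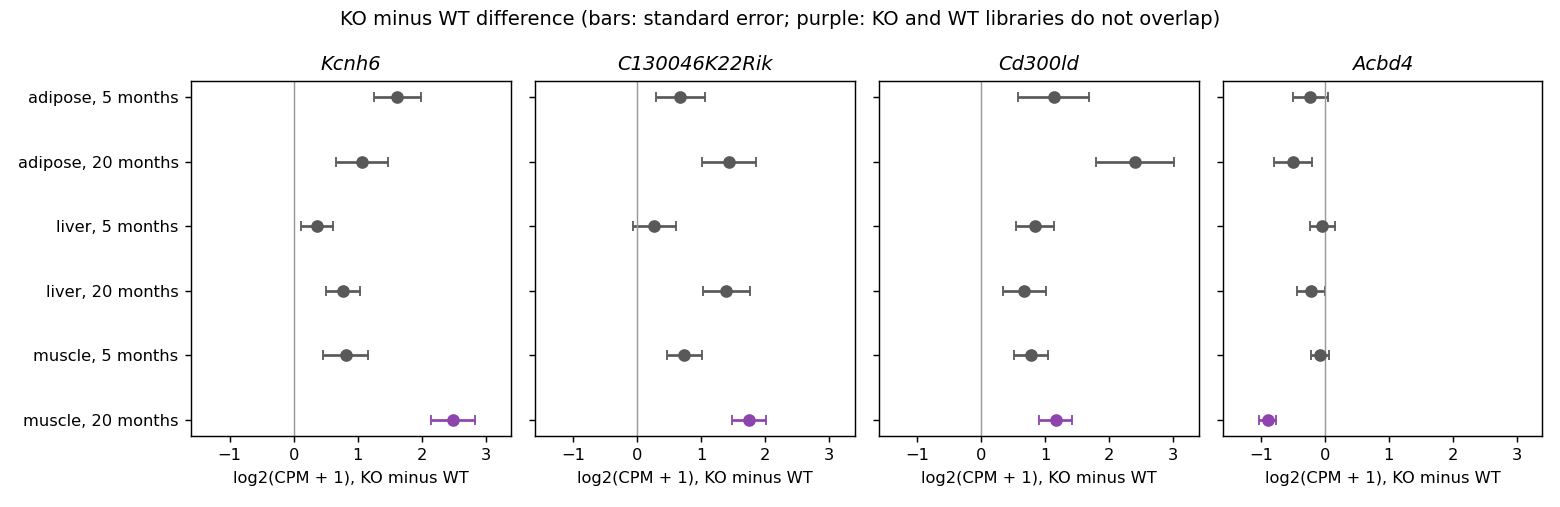
KO minus WT difference of each gene in log2(CPM + 1), with its standard error from the limma fit, for the 6 tissue and age comparisons. Purple points mark comparisons in which the KO and WT libraries do not overlap, which are the 4 genes in muscle at 20 months, from -0.89 for Acbd4 to 2.49 for Kcnh6.

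The fitted log2 differences in adipose tissue at 5 and 20 months were 1.62 and 1.07 for Kcnh6, 0.67 and 1.44 for C130046K22Rik, 1.14 and 2.41 for Cd300ld, and -0.23 and -0.50 for Acbd4. Liver had smaller ones for Kcnh6, at 0.36 and 0.77, and for Cd300ld, at 0.84 and 0.68. C130046K22Rik differed by 0.27 and 1.39 in liver and Acbd4 by -0.04 and -0.22. For muscle at 5 months they were 0.82 for Kcnh6, 0.73 for C130046K22Rik, 0.78 for Cd300ld and -0.08 for Acbd4. Whether the differences themselves changed with age was not tested, because the genes were chosen on KO against WT.

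Within WT, the same libraries were low for several of the genes. At 5 months, library codes carry numbers that recur across tissues, and the WT libraries without C130046K22Rik had the same pair of numbers in all 3 tissues: W5F5041 and W5F5042 in adipose tissue, W5L5041 and W5L5042 in liver, and W5S5041 and W5S5042 in muscle. They also held the lowest and next lowest Kcnh6 and Cd300ld of the 6 WT libraries in each tissue. The labels do not say whether a number marks the same animal across tissues, so the 3 tissues may share their mice and not be separate observations. Kcnh6 was 1.48 and 1.39 CPM in the pair from adipose tissue, 0.66 and 0.18 CPM in the liver pair, and 4.60 and 3.84 CPM in the muscle pair. Cd300ld was 1.57 and 1.03 CPM, 2.26 and 1.94 CPM, and 0.08 and 0.07 CPM in the same pairs. Acbd4, which was lower in KO, had its highest WT value in W5L5042 in liver (80.6 CPM) and in W5S5042 in muscle (21.1 CPM), and in adipose tissue W5F5042 and W5F5041 were the lowest after W5F5299. W5L5041 and W5S5041 stood in the middle of their groups.

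The WT libraries with Xist were the same 6. The 6 KO libraries with Xist had C130046K22Rik at 2.43 and 2.90 CPM in adipose tissue (K5F5116 and K5F5118), 1.52 and 2.95 CPM in liver, and 2.85 and 2.86 CPM in muscle. At 5 months presence of Xist thus went with absence of C130046K22Rik in WT, and not in KO. No library at 20 months had Xist, and 13 of the 15 WT libraries of that age had no C130046K22Rik read.

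**Figure D3:**
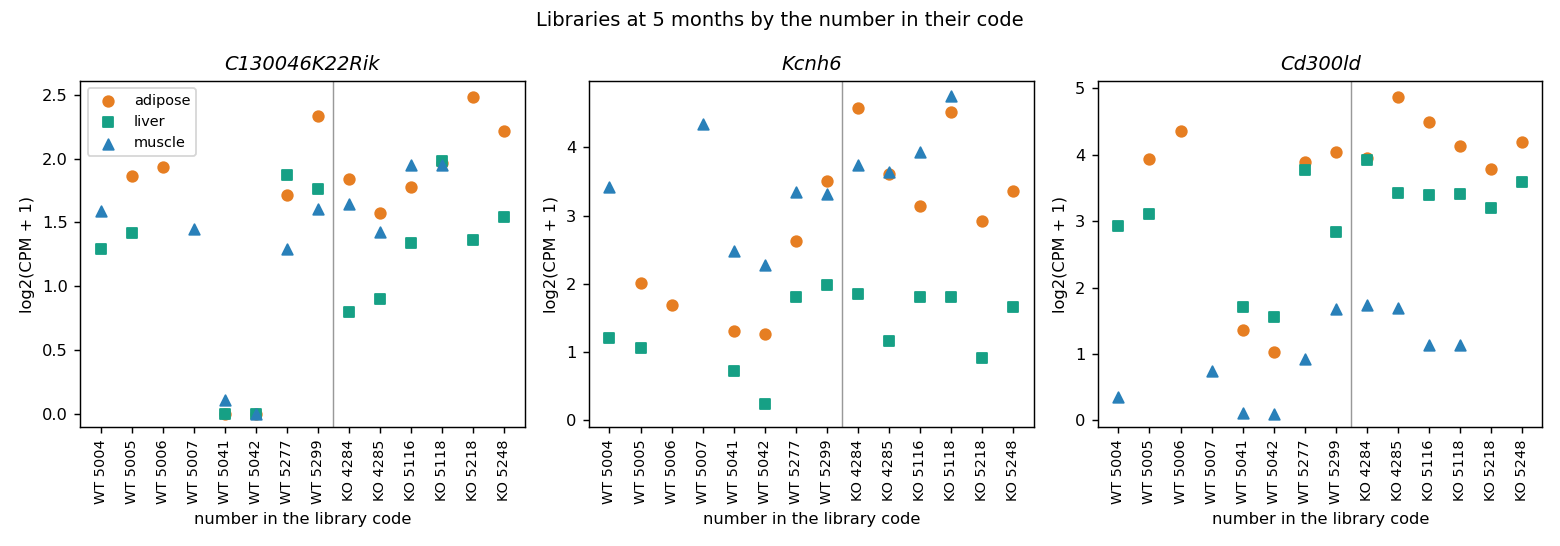
Level of C130046K22Rik, Kcnh6 and Cd300ld as log2(CPM + 1) in the libraries at 5 months, by genotype and the number in the library code, with 1 symbol per tissue; not every number has a library in each tissue. The WT libraries W5F5041, W5L5041, W5S5041 and their partners with the next number are at or near 0 for C130046K22Rik, where symbols coincide, and lowest among WT for Kcnh6 and Cd300ld in each tissue.

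Likeness between genes was described by Pearson's r over 64 libraries of log2(CPM + 1) centred on the mean of each tissue and age. These points share libraries and carry the KO and WT labels that chose the genes. Among 11330 genes tested in every tissue, the gene most like C130046K22Rik was Cd300ld (r = 0.808), followed by Kcnh6 (r = 0.764) and Dcaf7 (r = 0.598), which lies just beyond Kcnh6. The lowest r were -0.627 for the lncRNA gene 1700052K11Rik and -0.617 for Ide, the insulin-degrading enzyme. C130046K22Rik was the first gene for Kcnh6 too, before Cd300ld (r = 0.648) and Washc2 (r = 0.624), while Riox2 and Dkc1 were lowest (r = -0.619 each).

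For Cd300ld the first was C130046K22Rik, then Apobec1 (r = 0.796) and C3ar1 (r = 0.735), a complement receptor of myeloid cells. The lowest were Gt(ROSA)26Sor (r = -0.607), the locus that holds the Cre in KO mice, and Abca5 (r = -0.599). Acbd4 went with other genes: Mtfp1 (r = 0.811), Ppdpf (r = 0.751) and Slc25a26 (r = 0.742) were first, and Zswim8 (r = -0.701) was among the lowest. Mtfp1 and Slc25a26 encode mitochondrial membrane proteins. Acbd4 had an r of -0.401 with C130046K22Rik, -0.534 with Kcnh6 and -0.349 with Cd300ld.

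These values rest on the 2 ranges of C130046K22Rik. Within the 45 libraries with more than 3 C130046K22Rik reads, its r was 0.13 with Kcnh6 and -0.07 with Cd300ld, and Kcnh6 and Cd300ld had an r of 0.00. Within the other 19 libraries Kcnh6 and Cd300ld had an r of 0.07. Centred on all 12 groups, which removes the genotype means, Cd300ld (r = 0.740) and Nsd1 (r = 0.635) were most like C130046K22Rik. For Kcnh6 they were then C130046K22Rik (r = 0.581) and Slc43a2 (r = 0.462), and for Cd300ld C130046K22Rik and Hpgds (r = 0.698). Acbd4 had Mtfp1 (r = 0.823) and Slc25a26 (r = 0.783).

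Of the 20 genes most like each member, chromosome 11 held 5 for C130046K22Rik, 3 for Kcnh6, 4 for Cd300ld and 2 for Acbd4 with tissue and age centred. With all 12 groups centred it held 5, 8, 3 and 3. Chromosome 11 has 8.30% of the genes examined. Those counts include the members themselves.

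**Figure D4:**
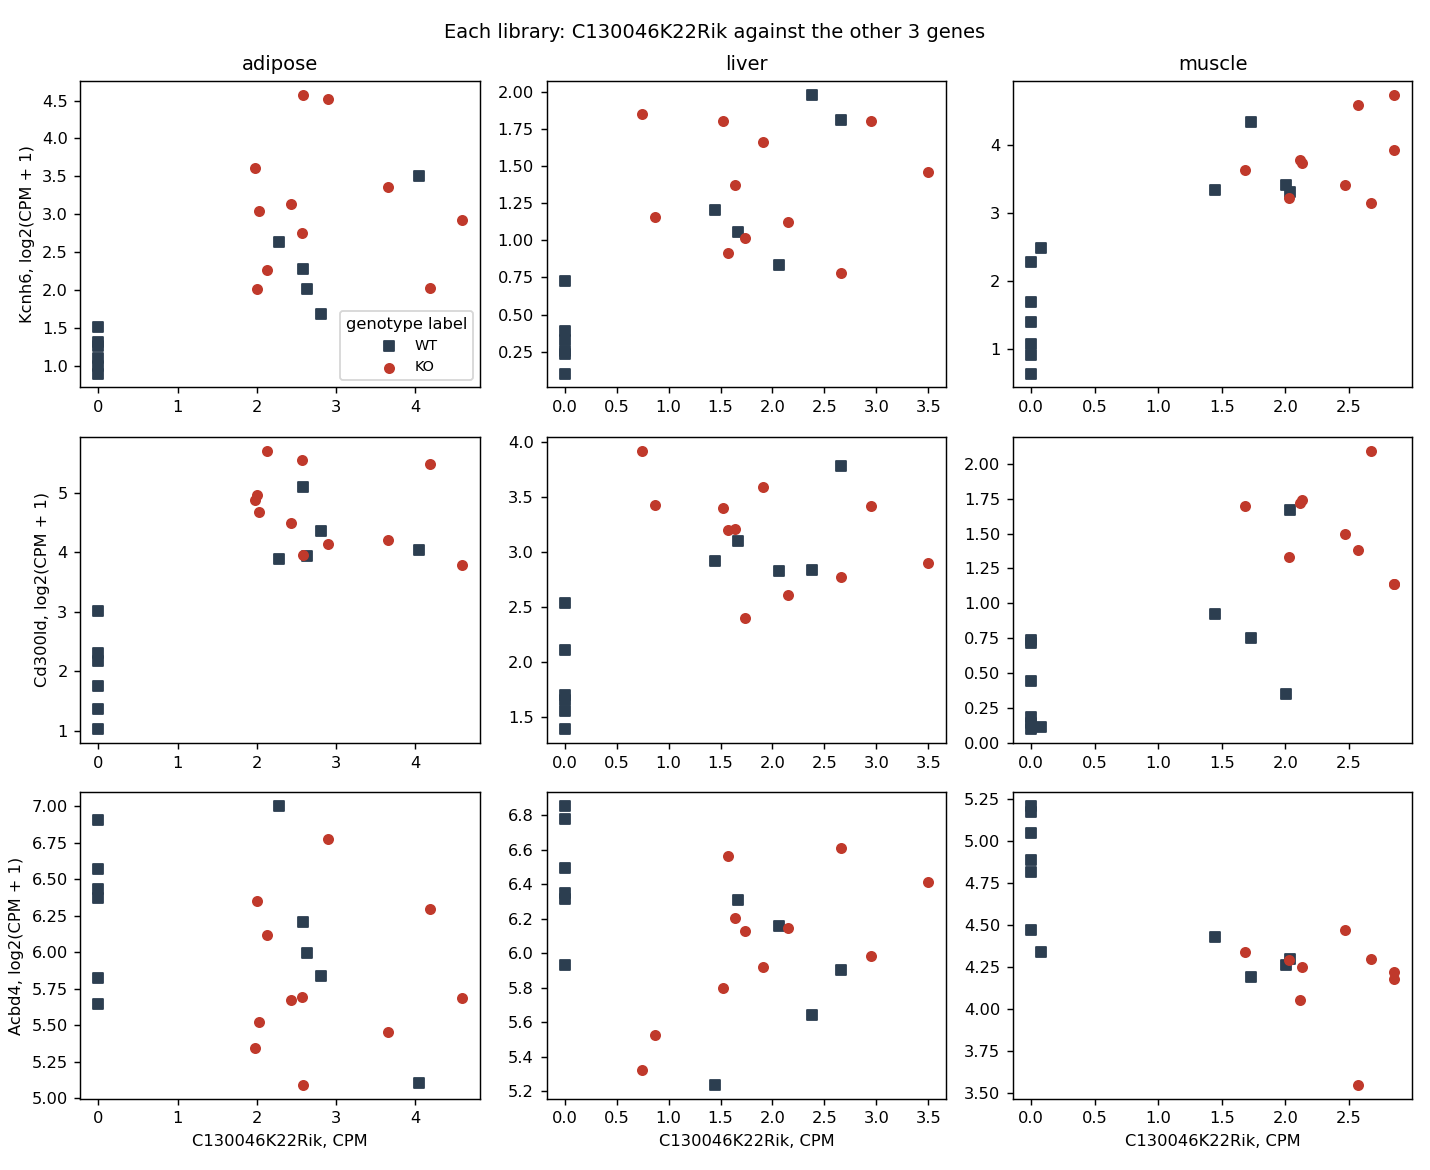
C130046K22Rik in CPM against Kcnh6, Cd300ld and Acbd4 in log2(CPM + 1), 1 point per library, by tissue, with WT as squares and KO as circles. WT libraries without C130046K22Rik lie low for Kcnh6 and Cd300ld and reach the highest Acbd4 values in liver and muscle, while within the libraries that have it no slope is seen for Kcnh6 or Cd300ld (r of 0.13 and -0.07 over 45 libraries).

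Levels across tissues were tested within 1 genotype at 5 months with limma, adjusted over 15844 genes by the Benjamini-Hochberg method. WT libraries had 7 of 12 calls among 4 genes and 3 tissue pairs, and KO libraries 6 of 12. Tissue differences were common, with 72.7%, 71.6% and 73.7% of all genes called in WT (adipose tissue against liver, adipose tissue against muscle, liver against muscle) and 73.9%, 68.8% and 70.6% in KO, and nothing particular to the members is read from their counts.

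In WT the order of Kcnh6 was muscle, adipose tissue, liver: muscle exceeded adipose tissue by 1.13 ± 0.327 (SE; adjusted p = 0.0018) and adipose tissue exceeded liver by 0.90 ± 0.327 (adjusted p = 0.0122). The first of these was not called when values were scaled by the total of reads on genes (adjusted p = 0.23). For KO, adipose tissue exceeded liver by 2.15 ± 0.327 (adjusted p = 4.8e-08). Adipose tissue and muscle of KO differed by -0.33 ± 0.365 (adjusted p = 0.44), a difference within its error.

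Cd300ld was lowest in muscle. WT adipose tissue exceeded muscle by 2.45 ± 0.413 (adjusted p = 5.3e-07) and WT liver exceeded muscle by 2.0 ± 0.413 (adjusted p = 2.1e-05). In KO these were 2.81 ± 0.462 (adjusted p = 3.8e-07) and 2.06 ± 0.462 (adjusted p = 8e-05). Adipose tissue and liver were not called in either genotype, at 0.45 ± 0.413 in WT and 0.75 ± 0.413 in KO. Acbd4 was likewise lowest in muscle, by 1.57 ± 0.214 against adipose tissue in WT and 1.42 ± 0.240 in KO. C130046K22Rik gave no call in any of 6 pairs by limma (adjusted p = 0.077 to 0.91), with 0 of 6 at an unadjusted p under 0.05 and 0 of 6 by edgeR. Scaled by the total of reads on genes, 3 of the 6 were called, each with adipose tissue higher: 0.78 against liver in WT, and 1.44 against liver and 0.96 against muscle in KO.

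Scaling mattered for adipose tissue. Scaled by the total of reads on genes instead of the deposited CPM, the median gene moved by 0.85 in WT and 0.89 in KO between adipose tissue and liver. Acbd4 between adipose tissue and liver of KO then turned from -0.18 (limma adjusted p = 0.45) to 0.97 (adjusted p = 3.8e-05), moving in the same direction as the median gene. The order of adipose tissue against liver for Acbd4 therefore depends on the scale used, as do the calls of Cd300ld and C130046K22Rik for that pair. Kcnh6 was called higher in adipose tissue than in liver in 5 of 5 alternatives in each genotype. Of limma fits without 1 library, 12 of 12 kept this call in KO and 10 of 12 in WT. It was lost in WT without W5F5299 (adjusted p = 0.084), the WT adipose library with epididymis transcripts. The part of that tissue in these differences was not tested. The orders with muscle as the lowest tissue for Cd300ld and Acbd4 were called on both scales.

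Ageing was tested within each genotype, 20 against 5 months. This contrast did not choose the genes but shares every library with the one that did. In WT muscle 3 of 4 genes changed, against 18.6% of 13237 genes. The WT muscle libraries at 20 months are also an arm of the contrast that chose the genes, so nothing is read from that count. Kcnh6 fell by 2.05 ± 0.330 (SE, log2; limma adjusted p = 0.0012), and each of the 5 libraries at 20 months lay below each of the 6 at 5 months. C130046K22Rik fell by 1.01 ± 0.252 (adjusted p = 0.0123). Acbd4 rose by 0.70 ± 0.129 (adjusted p = 0.0031), with each library at 20 months above each at 5 months. Cd300ld differed by -0.21 ± 0.246 (adjusted p = 0.58).

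The calls for Kcnh6 and Acbd4 held in 7 of 7 alternatives and in 11 of 11 fits that left out 1 library. C130046K22Rik held in 11 of 11 such fits and lost its call with only the 2 groups in the fit (adjusted p = 0.058). These fits reuse the WT muscle libraries at 20 months, an arm of the contrast that chose the genes. How the calls held is therefore no separate support for a change with age. WT groups differ in how many libraries lack C130046K22Rik, with 2 of 6 at 5 months and 5 of 5 at 20 months. The Kcnh6 values of W5S5041 and W5S5042, which lack it, were 4.60 and 3.84 CPM, above the highest WT muscle library at 20 months (2.23 CPM). Their Acbd4 values were 19.2 and 21.1 CPM, below the lowest at that age (27.1 CPM).

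KO muscle had no call among the 4 genes by limma, edgeR or DESeq2, and 0 of 4 at an unadjusted p under 0.05, against 5.57% of all genes called. Kcnh6 there differed by -0.38 ± 0.366 and Acbd4 by -0.12 ± 0.143. Whether the ageing differences of KO and WT muscle differ was not tested, since that difference is the contrast that chose the genes.

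In KO adipose tissue 1 of 4 genes was called, against 14.2% of all genes: Kcnh6 fell by 1.27 ± 0.387 (limma adjusted p = 0.0352). KO adipose libraries of both ages are also arms of KO against WT, on which the genes were chosen, so nothing is read from that call. The call held in 5 of 11 fits without 1 library and was lost without any 1 of K18F26, K18F27, K18F29, K18F30, K5F4284 and K5F5118. Cd300ld there differed by 1.03 ± 0.584 (adjusted p = 0.22). WT adipose tissue had 0 of 4 by limma, edgeR and DESeq2, with 2 of 4 at an unadjusted p under 0.05, against 10.8% of all genes. It had 1 of 4 called without W18F23, which was C130046K22Rik, and 1 of 4 without W5F5277, which was Acbd4.

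In WT liver 0 of 4 genes were called by limma, with 3 of 4 at an unadjusted p under 0.05, against 7.19% of all genes. Kcnh6 differed by -0.79 ± 0.258 (adjusted p = 0.064) and Acbd4 by 0.62 ± 0.205 (adjusted p = 0.064), and edgeR called 1 gene and DESeq2 called 2. Limma called 1 of 4 without W5L5005 and 1 of 4 without W5L5042. In KO liver 0 of 4 were called by limma, edgeR or DESeq2, with 2 of 4 at an unadjusted p under 0.05, against 2.99% of all genes.

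Genes related to the members were read from lists of each family. Of 8 Kcnh genes, 3 passed the filter in adipose tissue and only Kcnh6 in liver and muscle. Kcnh2, the channel of the heart's repolarising current, differed by 0.69 between KO and WT adipose tissue at 5 months and by -0.20 at 20 months, and Kcnh3 by 1.07 and -0.08. Groups overlapped for both. Kcnh3 fell with age in KO adipose tissue by 1.58 ± 0.357 (adjusted p = 0.0079), beside Kcnh6. Epididymis transcripts marked 3 of the 6 KO adipose libraries at 5 months and 0 of 5 at 20 months. No Kcnh3 value without those libraries is given, so age and that tissue cannot be told apart here. This limit also holds for the other related genes below that changed with age in KO adipose tissue. Kcnh1, Kcnh4, Kcnh5, Kcnh7 and Kcnh8 did not reach the filter in any tissue.

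Among 9 acyl-CoA binding and VAP genes 8 were tested in each tissue. At 20 months in muscle Acbd4 and Vapa, a VAP protein of the endoplasmic reticulum, had KO groups below WT groups, by -0.89 and -0.18. The list's median was -0.19 against -0.03 for all genes tested, of which 3.0% had separate groups in either direction. Acbd4, chosen on this contrast, is part of both the count and the median, so nothing is read from either. In the other 5 comparisons none of the 8 had separate groups. Acbd5, which tethers peroxisomes through VAP proteins, rose with age in WT muscle by 0.40 ± 0.118 (adjusted p = 0.0271), as Acbd4 did. Vapb rose with age in KO adipose tissue by 0.47 ± 0.120 (adjusted p = 0.0162). Of the 8, the ageing test thus called 2 in WT muscle (18.6% of all genes) and 1 in KO adipose tissue (14.2% of all genes), so nothing particular to the list is read from them.

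Of 13 CD300 genes 12 were matched, and 9 were tested in adipose tissue and liver and 5 in muscle. The list's median KO minus WT difference was above 0 in 6 of 6 comparisons, from 0.14 in liver to 0.75 in adipose tissue, both at 20 months. Over all genes tested the median was 0.01 in both of these. The list includes Cd300ld, which was chosen on this contrast, so nothing is read from its medians. Besides Cd300ld in muscle, only Cd300ld4 had separate groups, in adipose tissue at 20 months (0.94), and its sequence is among those that share stretches with Cd300ld. That is 1 of 9 genes tested there, against 1.29% of all genes. Cd300ld5 and Cd300ld3 went the other way in adipose tissue at 20 months, at -1.20 and -0.38, with overlapping groups. Cd300a, an inhibitory member, differed by 0.24 at 5 months and 0.82 at 20 months in adipose tissue.

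With age, Cd300ld3 and Cd300ld5 rose in WT adipose tissue by 1.53 ± 0.409 and 1.90 ± 0.365 (adjusted p = 0.0224 and 0.0030). Cd300a and Cd300lb rose in KO adipose tissue by 1.25 ± 0.313 and 1.91 ± 0.423 (adjusted p = 0.0145 and 0.0071), where Cd300lf fell by 1.08 ± 0.319 (adjusted p = 0.0310). In liver Cd300c2 and Cd300lg fell in both genotypes and Cd300a in WT. Cd300c2 fell by 0.75 ± 0.179 in WT and 0.72 ± 0.179 in KO. Cd300ld itself was called in none of these contrasts. Of 9 CD300 genes tested in WT adipose tissue 2 rose, against 10.8% of all genes called. In KO adipose tissue 2 of 9 rose and 1 fell, against 14.2%. In liver 3 of 9 fell in WT, against 7.19%, and 2 of 9 in KO, against 2.99%. Of 3 adaptors of myeloid receptors, Fcer1g fell with age in WT muscle by 0.84 ± 0.282 (adjusted p = 0.0438) and Tyrobp in WT liver by 0.81 ± 0.219 (adjusted p = 0.0278). Each was 1 of 2 adaptors tested there, against 18.6% of all genes in WT muscle and 7.19% in WT liver. Nothing particular to either list is read from these counts.

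Other genes near the members were taken by position. RefSeq lists 207 genes that start within 1 Mb of a member, and 122 were tested in at least 1 tissue. In muscle at 20 months 8 of 102 tested neighbours had separate KO and WT groups (7.84%), 2 with KO above and 6 with KO below. The share was 3.0% over all genes and 4.0% over chromosome 11 without the members. Adipose tissue at 20 months had 4 of 110 (3.64%, against 1.29%) and liver 5 of 103 (4.85%, against 2.46%). At 5 months there were 0 of 110, 0 of 103 and 1 of 102.

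No neighbour had separate groups in 3 or more comparisons. Itgb4, an integrin subunit 0.99 Mb from Cd300ld, had them in 2, named here after its values were seen. Neighbours of Kcnh6 had a median size of 0.10 in muscle at 20 months, against 0.17 over all genes and 2.49 for Kcnh6. For neighbours of Cd300ld the median size was 0.26, and for those of C130046K22Rik and Acbd4 it was 0.23 and 0.22.

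**Figure D5:**
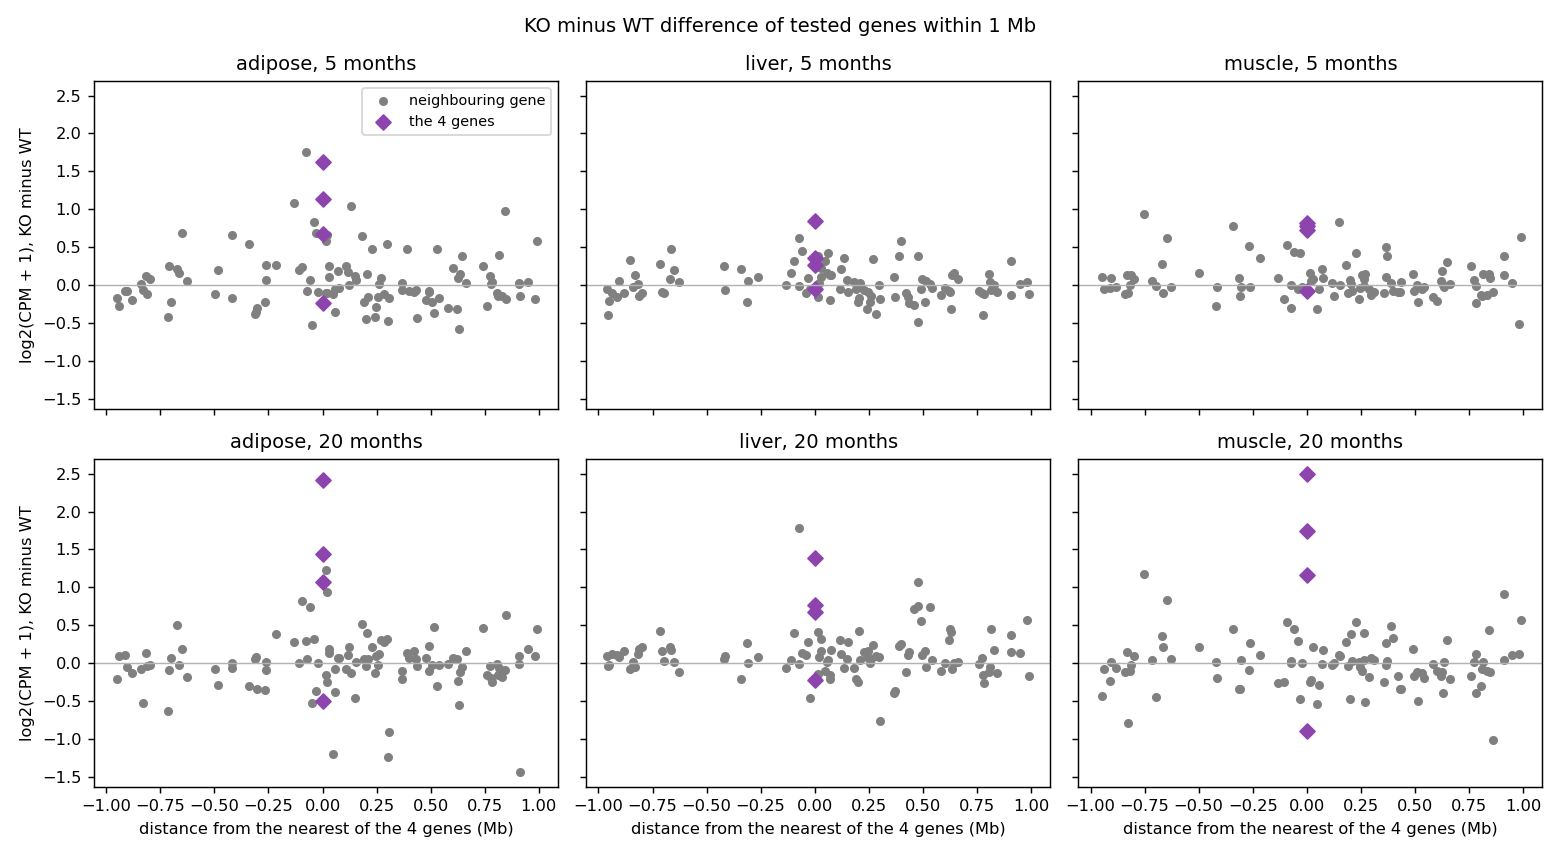
KO minus WT difference in log2(CPM + 1) of tested genes that start within 1 Mb of a member, by distance from the nearest member in Mb (negative: lower coordinate), for each tissue and age. Purple diamonds at 0 are the 4 members, which reach 2.49 in muscle at 20 months, where the grey neighbours lie mostly within 0.5 of 0.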

How the data were processed

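Per the file headers and column names, the authors deposited 1 table of CPM values for 64 libraries. The deposited values are a normalized signal named CPM by the authors, not plain counts. Column sums run from 529294 to 1640180, and with a tolerance of 0.01 every value is a whole multiple of what 1 read is worth, so 100% of values gave whole reads. Build names GRCm38.p6 and mm10 are per the submitters' processing notes, and the aligner and counter are not given in the sources used here. No column went unused. Library codes of the older mice hold 18 where the labels say 20 months, and 20 was used.

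Genes entered a tissue if more than 1 CPM was reached in at least the number of libraries of its smallest group (14286 genes for adipose tissue, 12924 for liver, 13237 for muscle). They were tested by limma 3.58.1 (R 4.3.3) on log2(CPM + 1), with Benjamini-Hochberg adjustment and a threshold of 0.05. The fit was run on simulated data with 200 changed genes, and as the outcome is not given here, nothing on its accuracy is read from that. Alternatives used edgeR 4.0.16 and DESeq2 1.42.0 on recovered reads, a pseudocount of 0.1, no filter, scaling by the total of reads on genes, a covariate for Xist, only the 2 groups compared, fits without each library, and, chosen after seeing the data, fits without adipose libraries with epididymis transcripts. "Separate" or "not overlapping" groups means that every KO library lies above, or below, every WT library.

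The members and lists were chosen with earlier results of these data known. Named were all members, genes of short lists, neighbours with separate groups in at least 3 comparisons, and per member the 3 highest and 2 lowest correlations with tissue and age centred and the 2 highest with groups centred; 1 gene that this rule names is not reported here. RefSeq's promoter table matched 3 of 4 members. Neutrophil, nerve, pancreas, mesothelium, endothelial, epididymis and tissue marker lists were read besides the macrophage list.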

Additional observations from a re-analysis of the deposited data

Results flagged for a closer look

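Among 47 combinations of gene and group, 6 had a library that stood apart from the rest of its group by Dixon's criterion, which chance alone meets in about 1 of 20 groups. Of these, 3 were in the WT libraries W18F23 and W18L03: C130046K22Rik at 2.59 CPM in W18F23 and at 2.07 CPM in W18L03, where the other 4 WT libraries of each group had 0, and Cd300ld at 33.0 CPM in W18F23, where the others held 2.35 to 7.02 CPM. In KO adipose tissue at 20 months C130046K22Rik was 4.18 CPM in K18F29, against 2.0 to 2.57 CPM in the others. Acbd4 stood apart in adipose tissue at 5 months in both genotypes, at 109 CPM in K5F5118 against 33.1 to 50.5 CPM, and at 127 CPM in W5F5277 against 33.5 to 62.6 CPM.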

How the results depend on the processing

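Of 872 values of single genes under alternatives, 823 counted as the same. A tested value did so if its call did not change, even where its sign turned with no call in either fit. Kcnh6 between KO adipose tissue and muscle, for instance, ran from -0.51 to 0.56. An untested value did so if it moved by less than the residual standard deviation, or turned from within its standard error. Of the rest, 20 gained a call, 11 lost one, and 17 untested values kept their direction but moved further. The other 1 turned with a call: Acbd4 between KO adipose tissue and liver, to 0.97 with scaling by the total of reads on genes. Counts of members that ageing changed moved as follows, and the cause was not tested. WT adipose tissue had 1 with the covariate for Xist. KO adipose tissue had 0 without a filter and 2 with only the 2 groups compared. WT liver had 1 with a pseudocount of 0.1, with that scaling, with edgeR and with the Xist covariate, and 2 with DESeq2. KO tissue pairs had 10 calls with that scaling. Members with separate KO and WT groups at 5 months numbered 1 in adipose tissue without the libraries with epididymis transcripts (chosen after seeing the data) and 1 in muscle without the libraries with Xist, which was Cd300ld. With a window of 2 Mb the share of neighbours with separate groups was 2.12% in adipose tissue at 20 months and 1.70% in muscle at 5 months.

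Leaving out 1 library at a time gave 0 to 1 ageing calls in WT adipose tissue, 0 to 1 in KO adipose tissue, 0 to 1 in WT liver, 0 to 0 in KO liver, 3 to 3 in WT muscle and 0 to 0 in KO muscle. Tissue pairs had 6 to 8 calls in WT and 6 to 7 in KO. At 5 months the members with separate groups numbered 0 to 1 for adipose tissue, for liver and for muscle. At 20 months they numbered 0 to 4, 0 to 2 and 4 to 4. With the number in the library code as a replicate block (consensus correlation 0.047), tissue pairs kept 7 calls in WT and 6 in KO, so this pairing changed neither count. For KO against WT and for ageing, no paired analysis was possible because those groups share no code numbers. Depth limits C130046K22Rik and the low values of Kcnh6 and Cd300ld most: their lowest libraries hold 0 to 3 reads.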
